A study of Mus musculus with 6 samples.

Results

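The IGHV9 family is a group of 4 mouse heavy chain variable (V) genes, IGHV9-1, IGHV9-2, IGHV9-3 and IGHV9-4. Its members here were the IgH clonotypes whose best V gene hit was one of these genes. A clonotype is 1 distinct rearranged CDR3 sequence together with the reads assigned to it. The family held 649 of 7794 IgH clonotypes in the iB-μMT mouse, versus 406 of 6781 in the B6 mouse, or 1055 of 14575 in all.

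The study asked whether B cells regenerated from embryonic stem cells carry a diverse antibody repertoire. Splenic naïve FO (follicular) B cells were sorted from 1 mouse per group, by a gate positive for both IgD and IgM, and IgH transcripts were amplified by 5′ RACE and sequenced. The iB-μMT mouse was a μMT recipient, a strain that makes no mature B cells of its own because of a mutation in the IgM heavy chain gene. It was irradiated and examined 4 weeks after transplantation of iHPCs, hematopoietic progenitors induced in culture from the iR9X2-ESC line. That line is of C57BL/6 background, carries a GFP transgene, and expresses Runx1, Hoxa9 and Lhx2 from the Rosa26 locus under doxycycline, which the recipient also received in its water. The control was 1 C57BL/6 (B6) mouse that received no transplant. With 1 library per group there was no replicate check, and no p-values were computed. The 95% intervals given here cover counting error over clonotypes only, and differences between mice, cell preparations and groups cannot be told apart.

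An antibody heavy chain is assembled when a B cell precursor joins a D segment to a J segment, and then a V gene to the joined DJ. Nucleases trim the ends that are joined, and terminal deoxynucleotidyl transferase (TdT) adds nucleotides that no gene encodes. The stretch across the joints is CDR3, the most variable loop of the antigen-binding site. IGHV9 genes lie in the middle part of the mouse V gene cluster, among members of the IGHV3, IGHV7 and IGHV14 families.

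The last bases that each gene contributes to CDR3 are given first. These ends are shown because trimming differed between the genes, as described further on. Each is the commonest first 9 nucleotides of CDR3 among clonotypes with an untrimmed V end, and capitals mark bases that differ from IGHV9-3.
IGHV9-1: tgtgTaaga
IGHV9-2: tgtgcaaga
IGHV9-3: tgtgcaaga
IGHV9-4: tgtgcGaga
This end was found in 62 of 63 untrimmed IGHV9-1 clonotypes, 67 of 67 for IGHV9-2, 562 of 566 for IGHV9-3 and 77 of 77 for IGHV9-4. IGHV9-2 and IGHV9-3 shared 1 end, while IGHV9-1 and IGHV9-4 each differed from it by a single base.

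The most-read clonotype of each gene in each mouse is shown as an example of its junctions. Lower case marks bases assigned to V, D or J, and capitals mark inserted bases between them. Clonotypes without a recognizable D segment are printed in lower case throughout.
IGHV9-1 with IGHD4-1 and IGHJ2, iB-μMT mouse, 561 reads: tgtgttaactgggactactttgactactgg
IGHV9-1 with IGHD4-1 and IGHJ2, B6 mouse, 508 reads: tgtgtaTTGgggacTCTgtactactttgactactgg
IGHV9-2 with IGHD2-3 and IGHJ4, iB-μMT mouse, 567 reads: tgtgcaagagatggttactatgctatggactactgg
IGHV9-2 with IGHJ2, no D, B6 mouse, 637 reads: tgtgcaagagacgcctttgactactgg
IGHV9-3 with IGHD1-1 and IGHJ4, iB-μMT mouse, 708 reads: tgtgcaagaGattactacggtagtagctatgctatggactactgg
IGHV9-3 with IGHD3-2 and IGHJ1, B6 mouse, 722 reads: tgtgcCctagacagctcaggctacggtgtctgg
IGHV9-4 with IGHD3-1 and IGHJ2, iB-μMT mouse, 350 reads: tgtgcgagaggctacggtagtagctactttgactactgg
IGHV9-4 with IGHJ2, no D, B6 mouse, 329 reads: tgtgcgagaagggacgactttgactactgg
Of the 4 clonotypes from the iB-μMT mouse, 3 had no inserted base and the fourth had 1. In the IGHV9-4 clonotype of that mouse, 6 bases at the D or J ends were placed by MiXCR in palindromic extensions and were not counted as inserted. Such extensions follow from the letters alone, and bases placed there may be D or inserted bases. The IGHD3-1 hit of this clonotype rested on 7 bases, while a longer stretch of its CDR3 also occurs in the IGHV9-3 example with IGHD1-1. Its D gene and its lack of insertion are therefore uncertain.

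The IGHV9 family held a larger share of clonotypes in the iB-μMT mouse. It ranked the third among V families by clonotypes in both mice, but in the iB-μMT mouse the next family, IGHV2, held 648 clonotypes and, with 11.5% of reads, more reads than IGHV9. It made up 8.33% of the iB-μMT clonotypes (95% Wilson interval 7.73% to 8.96%) and 5.99% of the B6 clonotypes (5.45% to 6.58%). The ratio of the shares was 1.39, with an exact interval of 1.23 to 1.58. By reads, the family made up 8.45% of 909806 reads in the iB-μMT mouse, compared with 5.50% of 1383617 reads in the B6 mouse.

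That direction depended on the denominator, since the IGHV1 family alone held 59.3% of the B6 clonotypes and 29.8% of the iB-μMT clonotypes. Among clonotypes outside IGHV1, IGHV9 made up 11.9% in the iB-μMT mouse but 14.7% in the B6 mouse, a ratio of 0.806 (0.711 to 0.914). With IGHV1, IGHV2 and IGHV5 all set aside, the shares were 27.5% and 23.4%, and the ratio was 1.17 (1.04 to 1.33). Both denominators were chosen after the data had been seen.

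The neighbouring families IGHV3 and IGHV14 had ratios that overlapped that of IGHV9. IGHV3 made up 5.67% of the iB-μMT clonotypes and 4.03% of the B6 clonotypes, a ratio of 1.41 (1.21 to 1.64). IGHV14 made up 4.14% and 3.67%, a ratio of 1.13 (0.954 to 1.34). The 3 families thus lay between IGHV5, with a ratio of 2.47, and IGHV1, with a ratio of 0.502.

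Among the 4 genes, IGHV9-3 carried most of the family in both mice. It held 450 clonotypes in the iB-μMT mouse, or 5.77% of all IgH clonotypes, and 256 in the B6 mouse, or 3.78%. The ratio of the shares was 1.53 (1.31 to 1.79), and IGHV9-3 ranked the third among all V genes in both mice. Within the family its share was 69.3% in the iB-μMT mouse, versus 63.1% in the B6 mouse, a difference of 6.28 percentage points (0.399 to 12.2).

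IGHV9-1, the second largest member, showed no difference in share beyond counting error. It held 86 clonotypes (1.103%) in the iB-μMT mouse, compared with 76 (1.12%) in the B6 mouse, a ratio of 0.985 (0.715 to 1.36). Its ratio was lower than that of IGHV9-3: the ratio of the IGHV9-3 ratio to the IGHV9-1 ratio was 1.55 (1.101 to 2.19). This was the only one of the 6 pairs of IGHV9 genes whose interval left out 1, and the 6 intervals were not adjusted.

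IGHV9-2 and IGHV9-4 were the small members. IGHV9-2 held 60 clonotypes (0.770%) in the iB-μMT mouse but 32 (0.472%) in the B6 mouse, a ratio of 1.63 (1.05 to 2.59). IGHV9-4 held 53 (0.680%) and 42 (0.619%), a ratio of 1.098 (0.719 to 1.69). The order of the genes was IGHV9-3, IGHV9-1, IGHV9-2 and IGHV9-4 in the iB-μMT mouse, and IGHV9-4 stood before IGHV9-2 in the B6 mouse. The intervals of the IGHV9-2 and IGHV9-4 shares overlapped within each mouse, as did those of IGHV9-1 and IGHV9-2 in the iB-μMT mouse.

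**Figure D1:**
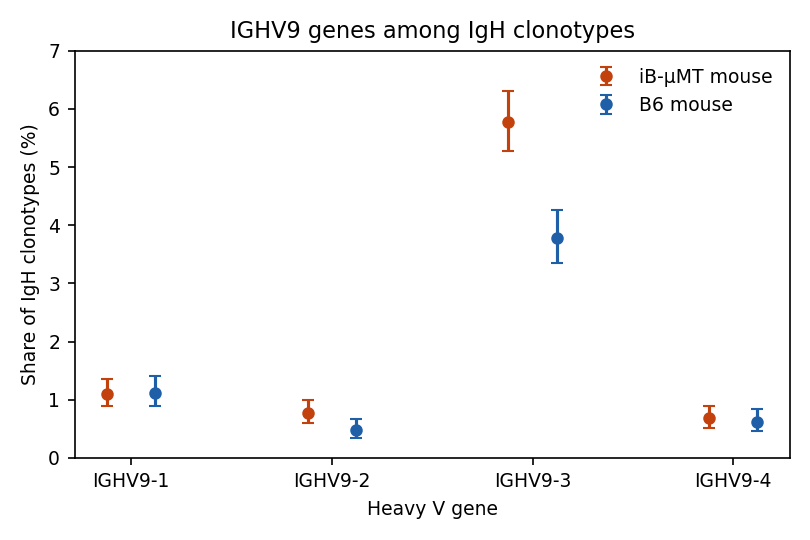
Share of all IgH clonotypes (y axis, %) held by each IGHV9 gene (x axis) in the iB-μMT mouse (orange) and the B6 mouse (blue); points are shares in 1 library each and bars are 95% Wilson intervals. The intervals of the 2 mice are apart for IGHV9-3 (5.77% and 3.78%) and overlap for the other 3 genes.

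None of the IGHV9 genes passed a 2-fold difference in share. Of the 77 V genes with at least 20 clonotypes over both libraries, 30 (39.0%) differed at least 2-fold in either direction, against 0 of the 4 IGHV9 genes. At 1.5-fold, 2 of the 4, IGHV9-2 and IGHV9-3, were higher in the iB-μMT mouse, as were 24.7% of the 77 genes. Both lay close to that limit: IGHV9-2 was at 1.33 without clonotypes of low V score, which were 12 of its 60 clonotypes in the iB-μMT mouse and 0 of its 32 in the B6 mouse, and IGHV9-3 was at 1.497 with near-identical clonotypes merged. The median log2 ratio of the IGHV9 genes was 0.37, and that of the 77 genes was -0.12. With 4 genes, these counts describe the family and do not set it apart.

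The IGHV9 genes lie on chromosome 12 of GRCm38.p6, annotated as V segments, and the D and J segments lie at lower coordinates. The positions come from the RefSeq gene table, as the clonotype tables hold no coordinates. Ighv9-1 lies at 114093928 to 114094221, Ighv9-2 at 114109001 to 114109430, and Ighv9-3 at 114140692 to 114141122, so that these 3 genes span 47.2 kb. Ighv9-4 lies at 114299961 to 114300254, a further 159 kb from the D segments. In order from the D segments, they were genes 29, 30, 31 and 39 of the 105 V genes found.

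Along this order the IGHV9 genes sat between genes with a larger share in the iB-μMT mouse and genes with a larger share in the B6 mouse. The 21 tested V genes nearer to the D segments than IGHV9-1 had a median log2 ratio of 1.12. The 49 tested genes beyond IGHV9-4 had a median of -0.80. Between IGHV9-1 and IGHV9-4, 3 genes of other families were tested, with ratios from 0.994 for IGHV14-4 to 1.38 for IGHV3-6.

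The tested V genes outside the family with ratios nearest to that of IGHV9-3 were all of the IGHV5 family. They were IGHV5-9-1 with a log2 ratio of 0.61, IGHV5-16 with 0.71 and IGHV5-9 with 0.50, against 0.61 for IGHV9-3. Likeness was the absolute difference in log2 ratio over the 2 libraries. IGHV5-9-1 differed from IGHV9-3 by 0.0019.

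**Figure D2:**
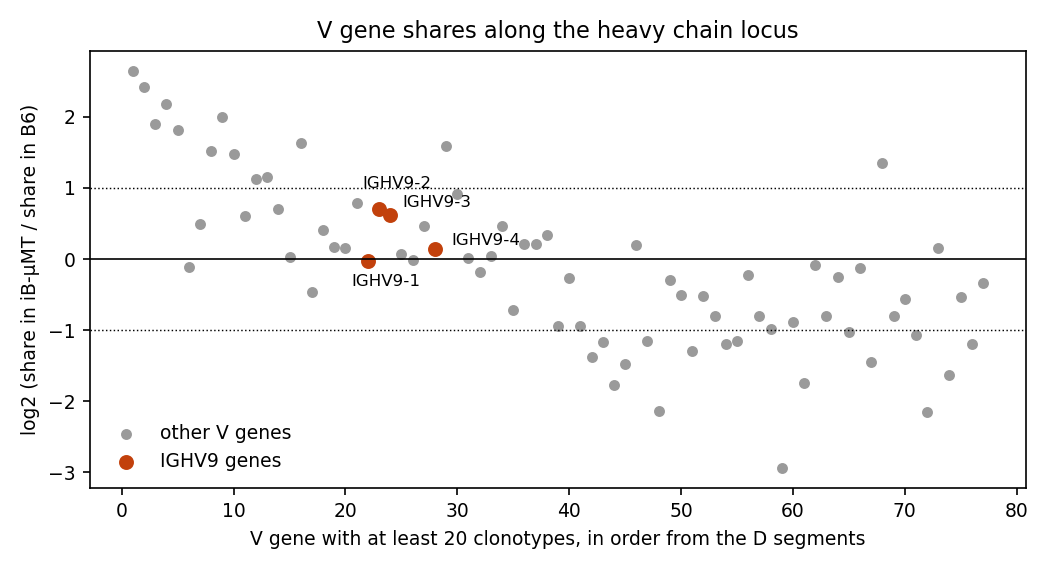
log2 ratio of the clonotype share in the iB-μMT mouse to that in the B6 mouse (y axis) for the 77 V genes with at least 20 clonotypes, placed in order from the D segments (x axis, D-near genes on the left). Orange points are the IGHV9 genes, grey points the other V genes, and dotted lines mark 2-fold; the 4 IGHV9 genes sit between -0.02 and 0.71, inside the dotted lines.

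Few IGHV9 clonotypes listed more than 1 V gene. A single V gene hit was reported for 641 of 649 IGHV9 clonotypes in the iB-μMT mouse (98.8%), and for 404 of 406 in the B6 mouse (99.5%). The share was 67.1% and 56.2% among other clonotypes, and 10.2% and 12.05% in IGHV14. In IGHV3 it was 98.4% and 97.8%, so single V gene hits were not particular to IGHV9. Of the IGHV9 clonotypes, 4 and 2 had a mismatch to the germline within the V part of CDR3. Each CDR3 sequence was listed once per library, so rearrangements with the same CDR3 and different V genes, if merged in assembly, could not be seen in these counts.

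The constant region of nearly all IGHV9 clonotypes was that of IgM. IGHM was the hit in 644 of the 644 IGHV9 clonotypes with a C gene hit in the iB-μMT mouse and in 403 of 404 from the B6 mouse, where the remaining clonotype was class switched. No clonotype of any V family had a hit to the IgD constant gene in either library, although the gate took IgD-positive cells. The assay may not return such hits, so no limit on the IgD share is given.

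No single clonotype dominated IGHV9 in either mouse. Reads per clonotype ranged from 1 to 708 in the iB-μMT mouse, with a median of 107, and from 1 to 722 in the B6 mouse, with a median of 183.5. The largest clonotype held 0.0778% of the iB-μMT library and 0.0522% of the B6 library. The 10 largest together held 6.78% and 7.27% of the family's reads. In the iB-μMT mouse 21 IGHV9 clonotypes rested on 1 read, as did 17 in the B6 mouse.

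Some of the most-read clonotypes had a low V alignment score. A score below 90% of the median of its V gene was found in 47 IGHV9 clonotypes (7.24%) of the iB-μMT mouse, compared with 18 (4.43%) of the B6 mouse. Among other clonotypes the shares were higher, at 9.78% and 7.75%. The shares differed between the mice by 2.81 percentage points (-0.017 to 5.63) in IGHV9 and by 2.03 (1.08 to 2.99) in other clonotypes. Of the 6 IGHV9 clonotypes with most reads, 5 in the iB-μMT mouse but only 1 in the B6 mouse had such a score, among them the IGHV9-2 and IGHV9-3 examples printed above for the iB-μMT mouse. Without all low-score clonotypes, the family ratio was 1.38 and the ratio of IGHV9-2 was 1.33 rather than 1.63.

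IGHV9 junctions carried fewer inserted nucleotides in the iB-μMT mouse than in the B6 mouse. The sum of V-D and D-J insertions averaged 4.29 ± 2.997 nucleotides (SD, n = 577 clonotypes with a D hit) in the iB-μMT mouse, versus 6.36 ± 4.04 (n = 353) in the B6 mouse. The iB-μMT mean was lower by 2.07 nucleotides, with the difference at -2.07 (-2.56 to -1.58). The largest number of inserted nucleotides was 16 in the iB-μMT mouse, compared with 23 in the B6 mouse.

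Over the family, the difference was found at both joints. At the V-D joint the means were 3.12 and 3.96 nucleotides, a difference of -0.84 (-1.22 to -0.46). At the D-J joint they were 1.18 and 2.40, a difference of -1.23 (-1.53 to -0.92). For the sum of both joints, the difference was -2.00 in IGHV9-1, -2.25 in IGHV9-2, -2.16 in IGHV9-3 and -1.85 in IGHV9-4, and each of these 4 intervals left out 0. At the D-J joint alone, the intervals of all 4 genes also left out 0. At the V-D joint alone, only that of IGHV9-3 did, at -1.07 (-1.55 to -0.58). The V-D differences of IGHV9-1, IGHV9-2 and IGHV9-4 were -0.38, -0.74 and -0.41.

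Junctions with no inserted nucleotide at all made up 7.80% of the IGHV9 clonotypes with a D hit in the iB-μMT mouse (45 of 577, interval 5.88% to 10.3%). In the B6 mouse they made up 2.27% (8 of 353, 1.15% to 4.41%). D-J joints without insertion were found in 56.8% and 29.7%, and V-D joints without insertion in 13.9% and 11.6%. The V-D shares differed by 2.25 percentage points (-2.12 to 6.62), so a difference in that share was not detectable with this number of clonotypes. Among other clonotypes, junctions with no insertion at all made up 8.86% and 2.82%, and D-J joints without insertion 53.8% and 28.8%. Their V-D joints without insertion made up 16.7% and 11.3%, a difference of 5.45 points (4.21 to 6.70). That V-D share was 23.3% and 14.2% in IGHV3, and 24.6% and 6.19% in IGHV14.

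The most-read IGHV9 clonotype without an inserted base is shown for each mouse, with no capitals as a result.
IGHV9-3 with IGHD2-3 and IGHJ2, iB-μMT mouse, 655 reads: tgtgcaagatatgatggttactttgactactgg
IGHV9-1 with IGHD3-2 and IGHJ2, B6 mouse, 425 reads: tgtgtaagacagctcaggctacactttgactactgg
Both kept the whole V end printed for their gene. The iB-μMT clonotype had a low V score, as did 6 of the 45 such clonotypes in that mouse and 0 of the 8 in the B6 mouse. With low-score clonotypes left out, the difference in the no-insertion share was 4.91 percentage points rather than 5.53.

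Palindromic nucleotides were assigned to a D or J end in 340 IGHV9 clonotypes of the iB-μMT mouse (52.4%), against 213 of the B6 mouse (52.5%). They averaged 1.82 and 1.98 nucleotides per clonotype with a D hit. When they were counted as inserted, the means were 6.11 and 8.35 nucleotides, and the difference was -2.23 (-2.86 to -1.60). Junctions with neither kind of base then made up 4.16% (24 clonotypes) and 1.13% (4 clonotypes), a difference of 3.03 percentage points (1.06 to 4.99) rather than 5.53.

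These values were close to those of the other V families in each mouse. Clonotypes outside IGHV9 averaged 4.32 inserted nucleotides in the iB-μMT mouse, versus 6.36 in the B6 mouse. The difference between the mice in IGHV9 minus that in the other clonotypes was -0.03 nucleotides (-0.53 to 0.48). The corresponding means were 3.88 and 5.68 for IGHV3, and 3.58 and 5.81 for IGHV14. Junctions with no inserted nucleotide made up 11.8% and 2.92% in IGHV3, and 14.7% and 1.43% in IGHV14.

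Inserted bases of IGHV9 clonotypes were rich in G and C in both mice. Of 1800 bases at V-D joints in the iB-μMT mouse, 69.7% were G or C, and of 1398 in the B6 mouse, 69.7%. At D-J joints the shares were 67.7% of 678 bases and 66.3% of 848. G alone made up 42.8% of the D-J bases in the iB-μMT mouse, compared with 36.6% in the B6 mouse. Among other clonotypes, G made up 40.3% and 39.1% of the D-J bases. Their G or C shares were 68.0% and 68.5% at V-D joints and 66.4% and 67.7% at D-J joints, so this richness was not particular to IGHV9. Bases of 1 junction are not independent, so no interval is given.

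IGHV9 CDR3s were also shorter in the iB-μMT mouse. CDR3 length averaged 13.3 ± 2.44 amino acids (SD, n = 649) in the iB-μMT mouse but 14.0 ± 2.61 (n = 406) in the B6 mouse, a difference of -0.71 (-1.02 to -0.39). Both ranged from 6 to 21 amino acids. CDR3s of 10 amino acids or fewer made up 15.7% and 10.3% of the family, and CDR3s of 17 or more made up 8.47% and 16.5%.

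The shortening was larger in IGHV9 than among other V genes. Other clonotypes averaged 13.6 amino acids in the iB-μMT mouse, versus 14.0 in the B6 mouse, a difference of -0.33 (-0.41 to -0.24). The difference of the differences was -0.38 amino acids (-0.71 to -0.05). In the iB-μMT mouse, IGHV9 CDR3s were shorter than the others by 0.369 on average, with IGHV9 minus other at -0.37 (-0.56 to -0.17), and in the B6 mouse the value was 0.01 (-0.25 to 0.27). CDR3s of 10 amino acids or fewer showed the same pattern, with 9.35% and 10.3% among other clonotypes and a difference of differences of 6.33 percentage points (2.13 to 10.5). CDR3s of 17 amino acids or more did not, with 11.2% and 17.3% among other clonotypes. Their difference of differences was -1.92 points (-6.28 to 2.44).

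CDR3 length in the neighbouring families is given for comparison, without a test against IGHV9. IGHV3 averaged 13.6 and 14.1 amino acids, a difference of -0.51 (-0.88 to -0.13). IGHV14 averaged 12.98 and 13.2, a difference of -0.19 (-0.62 to 0.24). Both intervals overlapped that of IGHV9, so the fall was not shown to be particular to IGHV9. CDR3s of 17 amino acids or more made up 11.1% and 19.4% of IGHV3, and 7.12% and 10.8% of IGHV14.

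**Figure D3:**
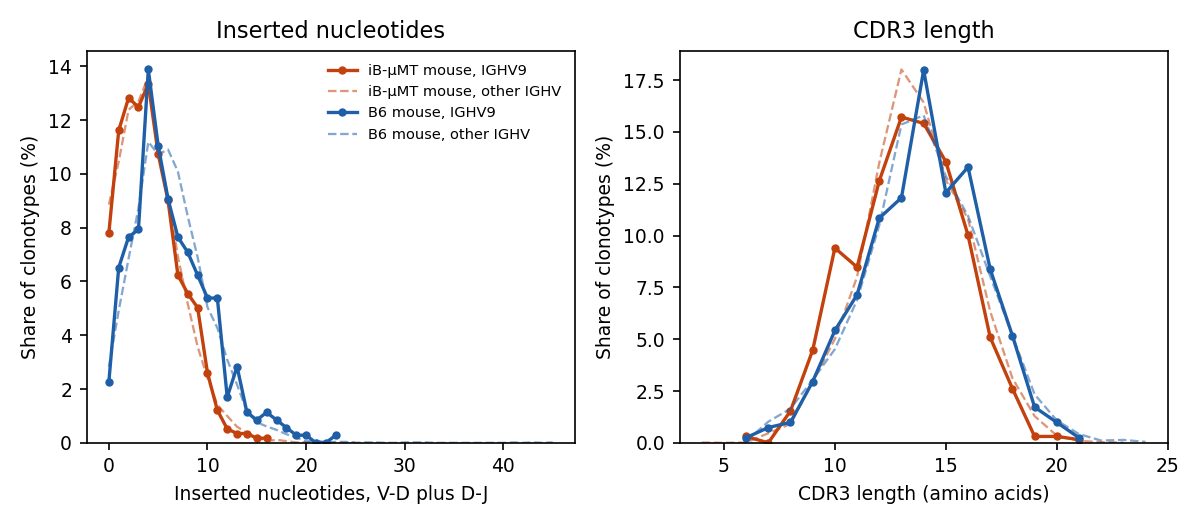
Share of clonotypes (y axes, %) by number of inserted nucleotides, V-D plus D-J (left, clonotypes with a D hit), and by CDR3 length in amino acids (right), for IGHV9 (solid lines with points) and other IGHV clonotypes (dashed lines) of the iB-μMT mouse (orange) and the B6 mouse (blue). The IGHV9 curves follow the dashed curves for insertions, from 7.80% and 2.27% at 0 nucleotides, while at 10 amino acids the iB-μMT IGHV9 curve stands at 9.40% and the B6 IGHV9 curve at 5.42%.

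The genes of the family differed from each other at the V end, in the same way in both mice. The V end was untrimmed in 38.4% of IGHV9-1 clonotypes in the iB-μMT mouse, compared with 39.5% in the B6 mouse. It was untrimmed in 73.3% and 71.9% for IGHV9-2, in 80.4% and 79.7% for IGHV9-3, and in 83.0% and 78.6% for IGHV9-4. IGHV9-1 lost 1.67 ± 1.75 nucleotides (SD, n = 86) and 1.89 ± 2.00 (n = 76), against 0.344 ± 0.825 (n = 450) and 0.371 ± 0.920 (n = 256) for IGHV9-3. The excess of IGHV9-1 over IGHV9-3 was 1.33 nucleotides (0.953 to 1.71) in the iB-μMT mouse but 1.52 (1.06 to 1.99) in the B6 mouse.

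IGHV9-1 clonotypes also had shorter CDR3s than IGHV9-3 clonotypes in both mice. They averaged 12.4 ± 2.62 amino acids in the iB-μMT mouse, versus 12.9 ± 2.80 in the B6 mouse, while the means were 13.4 ± 2.33 and 14.4 ± 2.53 for IGHV9-3. IGHV9-1 minus IGHV9-3 was -1.04 amino acids (-1.63 to -0.44) in the iB-μMT mouse and -1.45 (-2.15 to -0.75) in the B6 mouse. IGHV9-4 averaged 12.9 ± 2.71 and 13.1 ± 2.30 amino acids, within the spread of IGHV9-1, and IGHV9-2 averaged 13.4 and 14.0. The fall between the mice was largest in IGHV9-3, at -0.96 (-1.33 to -0.58), and the intervals of the other 3 genes took in 0. Whether the fall differed between the genes was not tested.

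**Figure D4:**
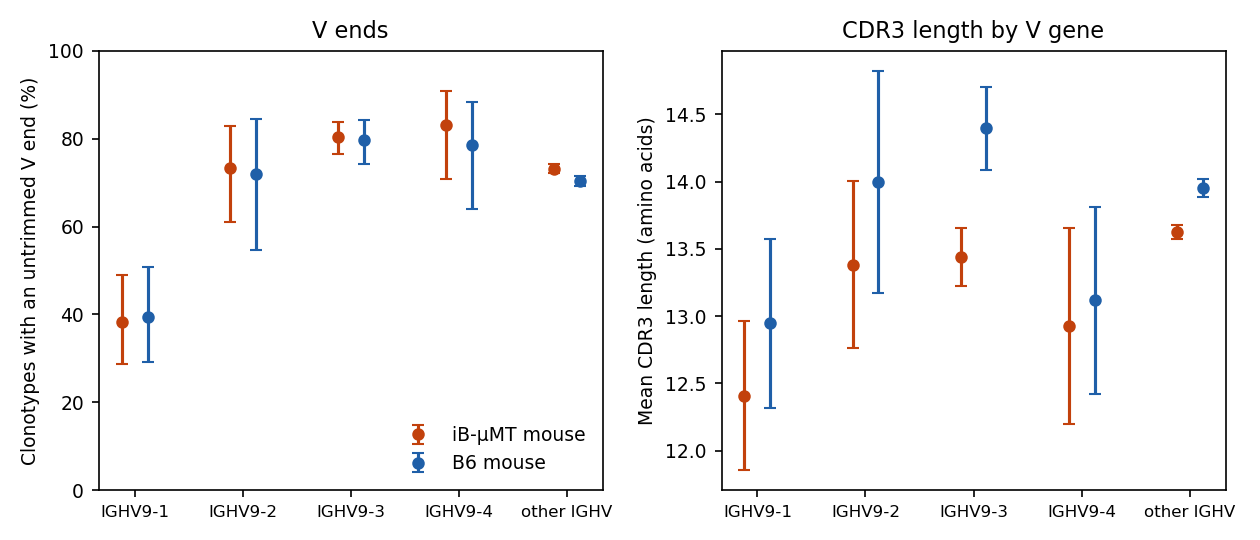
Clonotypes with an untrimmed V end (left, %, 95% Wilson intervals) and mean CDR3 length in amino acids (right, mean with 95% interval, axis not starting at 0) for each IGHV9 gene and for other IGHV clonotypes in the iB-μMT mouse (orange) and the B6 mouse (blue). IGHV9-1 stands below the other IGHV9 genes at the V end in both mice (38.4% and 39.5%), and IGHV9-3 shows the clearest gap between the mice in length (13.4 and 14.4 amino acids).

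IGHV9 clonotypes of the iB-μMT mouse used IGHJ2 more often and IGHJ4 less often than other clonotypes of that mouse. IGHJ2 was used by 265 of 649 IGHV9 clonotypes (40.8%) in the iB-μMT mouse, compared with 139 of 406 (34.2%) in the B6 mouse. Among other clonotypes IGHJ2 stood at 32.6% and 32.7%. The IGHV9 difference between the mice was 6.60 percentage points (0.629 to 12.6), and it exceeded that of the other clonotypes by 6.66 points (0.485 to 12.8). The pattern was not particular to IGHV9: in IGHV3, IGHJ2 stood at 35.5% and 28.2%, a difference of 7.32 points (0.358 to 14.3), and IGHJ4 at 22.9% and 29.3%, a difference of -6.45 (-13.1 to 0.215). In IGHV14 the IGHJ2 shares were 35.3% and 33.3%.

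IGHJ4 was used by 24.5% of IGHV9 clonotypes in the iB-μMT mouse but 30.0% in the B6 mouse, against 30.1% and 26.9% among other clonotypes. The difference of the differences was -8.80 points (-14.6 to -3.04). IGHJ3 was used by 23.3% and 20.2% of IGHV9 clonotypes, and IGHJ1 by 11.4% and 15.5%. The IGHV9 differences between the mice in these 2 J genes had intervals that took in 0, as did that of IGHJ4, at -5.55 (-11.1 to 0.0031). By gene, IGHJ4 was less frequent in the iB-μMT mouse in IGHV9-3 (23.1% and 30.1%) and IGHV9-4 (22.6% and 45.2%), with intervals that left out 0, and stood at 26.7% and 21.1% in IGHV9-1 and at 33.3% and 31.2% in IGHV9-2.

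The IGHJ2 share was measured higher in the iB-μMT mouse for each of the 4 IGHV9 genes, but each single interval took in 0. The shares were 39.5% and 35.5% for IGHV9-1, 48.3% and 34.4% for IGHV9-2, 38.9% and 34.0% for IGHV9-3, and 50.9% and 33.3% for IGHV9-4. IGHV9-3 with IGHJ2 was the largest V-J pair of the family in both mice, with 175 and 87 clonotypes. All 16 possible V-J pairs were found in each mouse.

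CDR3 length varied with the J gene in IGHV9. Mean length in the iB-μMT mouse was 12.2 amino acids with IGHJ2, 12.9 with IGHJ3, 14.5 with IGHJ1 and 14.8 with IGHJ4. Within IGHJ2 clonotypes of the iB-μMT mouse, IGHV9 CDR3s were still shorter than the others, at 12.2 ± 2.19 (SD, n = 265) against 12.6 ± 2.23 (n = 2329), a difference of -0.42 (-0.70 to -0.15). Within IGHJ1, IGHJ3 and IGHJ4 the differences were -0.12, -0.09 and 0.06, and their intervals took in 0.

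D segment use in IGHV9 followed that of other clonotypes in each mouse. IGHD4-1, the only IGHD4 gene found and the D segment nearest to the J segments, was used by 104 of 577 IGHV9 clonotypes (18.02%) in the iB-μMT mouse, versus 36 of 353 (10.2%) in the B6 mouse. These shares differed by 7.83 percentage points (3.38 to 12.3), against 9.07 (7.82 to 10.3) among other clonotypes. By gene, IGHD4-1 was more frequent in the iB-μMT mouse in IGHV9-2, IGHV9-3 and IGHV9-4, and stood at 12.7% and 14.3% in IGHV9-1. The intervals of the difference left out 0 for IGHV9-2 and IGHV9-3. For IGHV9-2 this rested on 9 of 53 clonotypes against 1 of 27, and the Wilson intervals of these 2 shares overlapped. IGHD1, found only as IGHD1-1, ran the other way, at 22.7% and 30.9%, a difference of -8.17 (-14.1 to -2.27).

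The IGHD2 family was the most used in both mice, at 48.7% and 44.8% of the IGHV9 clonotypes with a D hit. IGHD3 stood at 7.45% and 9.63%, IGHD5 at 2.95% and 4.25%, and IGHD6 at 1 clonotype in each mouse. The intervals of these 4 differences took in 0. No D hit was reported for 72 IGHV9 clonotypes in the iB-μMT mouse (11.1%), compared with 53 in the B6 mouse (13.1%). Hits to more than 1 D family were listed for 10.2% and 13.9% of the clonotypes with a D hit, so the D family of these is uncertain. In IGHV9-4, no D hit was reported for 5 of 53 and 11 of 42 clonotypes, the latter share overlapping that of IGHV9-1 in interval.

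**Figure D5:**
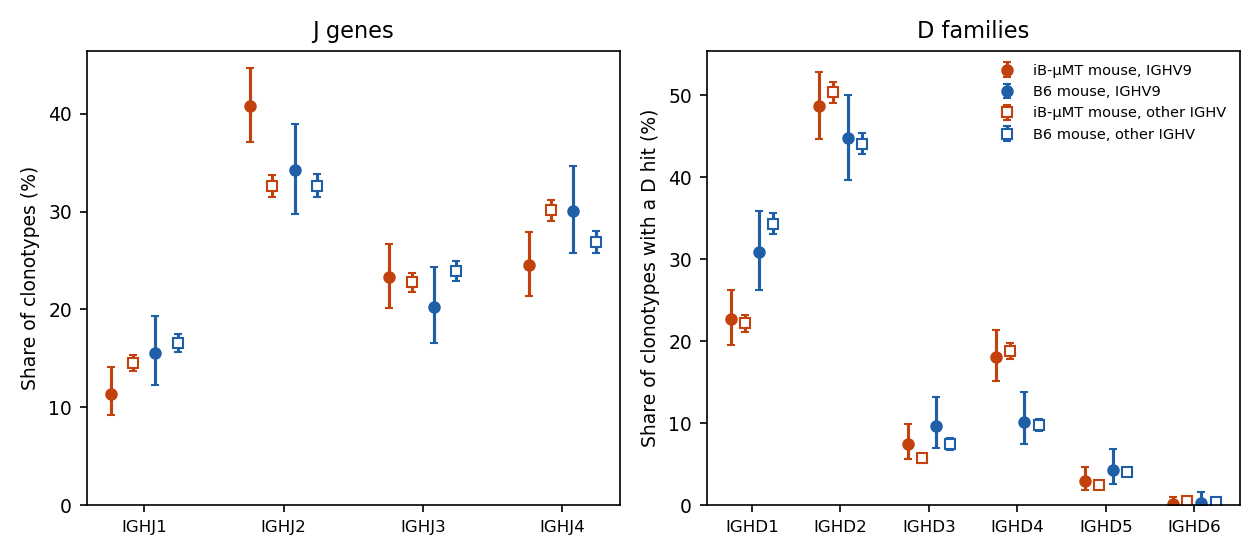
Share of clonotypes (%, 95% Wilson intervals) using each J gene (left, all clonotypes) and each D family (right, clonotypes with a D hit) in the iB-μMT mouse (orange) and the B6 mouse (blue), for IGHV9 (filled circles) and other IGHV clonotypes (open squares). IGHV9 stands above the other clonotypes for IGHJ2 in the iB-μMT mouse (40.8% and 32.6%), while IGHD4 stands at 18.02% in the iB-μMT mouse but 10.2% in the B6 mouse for IGHV9.

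In all, 28 features of the junctions were compared between IGHV9 and other clonotypes. In the iB-μMT mouse, IGHV9 differed from the rest with an interval that left out 0 in 7 of the 28, and in the B6 mouse in 0. The difference between the mice itself differed between IGHV9 and the rest in 5 of the 28: mean CDR3 length, the share of CDR3s of 10 amino acids or fewer, IGHJ2, IGHJ4, and net CDR3 charge. These features overlap one another, and their intervals were not adjusted for the number compared.

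Few IGHV9 CDR3s were found in both mice, as was the case for the libraries as a whole. The same CDR3, V gene and J gene occurred in 4 IGHV9 clonotypes, each with 1 read in the iB-μMT mouse and with 158 to 380 reads in the B6 mouse. They are printed because they were the only rearrangements of the family listed in both libraries, with capitals for inserted bases.
IGHV9-3 with IGHD2-7 and IGHJ3, 380 reads in B6: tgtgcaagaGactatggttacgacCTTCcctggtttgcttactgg
IGHV9-1 with IGHD1-1 and IGHJ2, 269 reads in B6: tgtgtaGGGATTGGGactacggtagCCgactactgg
IGHV9-3 with IGHD1-1 and IGHJ3, 225 reads in B6: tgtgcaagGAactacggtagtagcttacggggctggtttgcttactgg
IGHV9-3 with IGHD2-7 and IGHJ3, 158 reads in B6: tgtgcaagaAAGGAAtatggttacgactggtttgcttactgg
By the reported segment ends they held from 2 to 11 inserted bases, and each was a single read in the iB-μMT library. Any bases placed in palindromic extensions of D or J ends are in lower case and were not counted, so these numbers may be too low. Leaving out all clonotypes found in both mice moved the family to 645 and 402 clonotypes. The same step moved the whole iB-μMT library from 7794 to 7760 clonotypes and the whole B6 library from 6781 to 6747.

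Another 5 IGHV9 CDR3 sequences of the iB-μMT mouse were listed in the B6 mouse with another V gene. In the B6 mouse 1 of them was assigned to IGHV9-3 in place of IGHV9-2, and 4 were assigned to IGHV1 genes. No CDR3 sequence was listed under more than 1 clonotype in either library.
IGHV9-2 with IGHJ1, 323 reads in iB-μMT, and IGHV9-3, 149 reads in B6: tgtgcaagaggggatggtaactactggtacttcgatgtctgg
IGHV9-3 with IGHJ4, 224 reads in iB-μMT, and IGHV1-53, 470 reads in B6: tgtgcaagagatgctatggactactgg
IGHV9-3 with IGHD2-4 and IGHJ3, 99 reads in iB-μMT, and IGHV1-81, 413 reads in B6: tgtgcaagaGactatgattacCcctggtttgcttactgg
IGHV9-3 with IGHJ2, 422 reads in iB-μMT, and IGHV1-76, 309 reads in B6: tgtgcaagagactactactttgactactgg
IGHV9-3 with IGHJ1, 9 reads in iB-μMT, and IGHV1-26, 216 reads in B6: tgtgcaagagactggtacttcgatgtctgg
Of these 5, 4 had no D hit and the other had 2 inserted bases, and each began with the whole IGHV9-3 end.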

How the data were processed

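The authors prepared total RNA from sorted naïve FO B cells, amplified it by 5′ RACE and sequenced it on a MiSeq, and assembled clonotypes with MiXCR. Per the labels, reads were converted with bcl2fastq and the build was mm10. The deposited heavy chain tables give for each clonotype its read count, its fraction of all reads, and a score, the lowest base quality in CDR3, with gene hits and segment ends. The light chain tables (4) were not used. No molecular identifiers are described, so clonotypes rather than reads were counted.

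The best V, D, J and C hits were used, without allele. Inserted nucleotides were bases between the reported segment ends in clonotypes with a D hit, and bases that MiXCR placed in palindromic extensions of D or J ends counted as segment. Depth was 909806 reads (iB-μMT) and 1383617 reads (B6), of which 3 reads are 0.00033% and 0.000217%. Shares have 95% Wilson intervals, share ratios exact conditional binomial intervals, and differences normal intervals. V genes with at least 20 clonotypes were compared at 2-fold. Named were all IGHV9 genes, all J genes and D families, the families IGHV3 and IGHV14, the 3 V genes nearest to the largest IGHV9 gene in log2 ratio, and, by sequence, the most-read clonotype of each gene, the most-read one without insertion, and those found in both mice. The 5 CDR3s listed with another V gene were added after their values were seen. Members and lists were chosen with earlier results of these data known. All 105 V gene names matched RefSeq (GRCm38.p6). Python 3.11.15, numpy 2.4.6, scipy 1.17.1, pandas 2.3.3 and matplotlib 3.10.9 were used, and the scripts were tested on simulated data. Alternatives covered read minimums, equal read numbers, shared, merged, stop-free or uniquely assigned clonotypes, read weighting, D length, V score, palindromic bases and the denominator.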

Additional observations from a re-analysis of the deposited data

How the results depend on the processing

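Of 195 values under an alternative, 188 stayed within the interval (or, for the V gene count, within 1.5 times) of the value reported. The family ratio ranged from 1.37 with near-identical clonotypes merged to 1.53 weighted by reads under the alternatives other than those named next. It was reversed, at 0.806, among clonotypes outside IGHV1, as were IGHV9-2 (0.945) and IGHV9-3 (0.886), while IGHV9-1 moved to 0.570 and IGHV9-4 to 0.636. Outside IGHV1, IGHV2 and IGHV5 the family ratio was 1.17 and that of IGHV9-3 was 1.29. The alternative denominators, the V score minimum and both treatments of palindromic bases were chosen after seeing the data. The shift follows from the removed families, which differ between the mice. The difference in inserted nucleotides ranged from -2.19 to -2.05, that in the no-insertion share from 4.89 to 7.87 percentage points (3.03 with palindromic bases counted as inserted), and that in CDR3 length from -0.77 to -0.64 amino acids under the alternatives chosen earlier. Under these, IGHJ2 ranged from 5.20 to 7.60 points and IGHD4 from 6.88 to 8.22 points, and IGHD4 was at 8.41 without low V scores. V genes past the fold numbered 30 to 32 under those that keep 2-fold and the clonotype minimum, 34 of 70 without clonotypes with palindromic bases, 8 of 37 outside IGHV1, 2 of 22 outside IGHV1, IGHV2 and IGHV5, 45 at 1.5-fold, and 42 of 96 among all V genes found in both libraries. No paired analysis was possible because each group had 1 library. Merging near-identical clonotypes removed 89 clonotypes in the iB-μMT mouse but 384 in the B6 mouse. IGHV9-2 and IGHV9-4, with 32 and 42 clonotypes in the B6 mouse, have the widest intervals.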

Other observations

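IGHD4-1 joined to IGHJ2 made up 63 of 577 IGHV9 clonotypes with a D hit in the iB-μMT mouse (10.9%), versus 16 of 353 in the B6 mouse (4.53%). Among other clonotypes it made up 8.45% and 4.16%. Within IGHD4-1 clonotypes of the iB-μMT mouse, IGHJ2 was used by 60.6% of IGHV9 (63 of 104, interval 51.0% to 69.4%) and by 44.9% of other clonotypes (42.1% to 47.8%). In the B6 mouse the shares were 44.4% (16 of 36) and 42.8%. D-J joints without insertion were found in 28 of the 63 IGHV9 clonotypes with this pair in the iB-μMT mouse, compared with 1 of the 16 in the B6 mouse. Among other clonotypes with this pair the counts were 200 of 525 and 51 of 233, and among IGHV9 clonotypes with another D and J pair 300 of 514 and 104 of 337.

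Tyrosine, an amino acid common in antigen-binding loops, made up 23.2% of the CDR3 residues between the conserved first and last ones of IGHV9 clonotypes in the iB-μMT mouse but 20.2% in the B6 mouse, a difference of 3.004 percentage points (1.82 to 4.19). Other clonotypes stood at 22.5% and 19.8%. Net CDR3 charge of IGHV9 averaged -0.30 and -0.33, against -0.43 and -0.28 in other clonotypes.

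The most-read IGHV9 clonotypes had the shortest mean CDR3 length in both mice. With the IGHV9 clonotypes of each mouse split by reads into 4 parts of nearly equal size, CDR3 length in the part with most reads averaged 12.7 ± 2.12 amino acids (SD, n = 159) in the iB-μMT mouse, versus 13 ± 2.25 (n = 100) in the B6 mouse. In the part with fewest reads it averaged 13.4 ± 2.65 (n = 163) and 14.3 ± 3.11 (n = 103). In the clonotypes of these parts that had a D hit, inserted nucleotides averaged 3.697 and 5.60 with most reads, and 4.52 and 6.73 with fewest.

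IGHV9 clonotypes with a stop codon in CDR3 numbered 3 of 649 in the iB-μMT mouse (0.462%), compared with 7 of 406 in the B6 mouse (1.72%). The interval of the difference took in 0. Among other clonotypes the shares were 0.70% and 2.24%, a difference of -1.54 percentage points (-1.96 to -1.13). Distinct CDR3 amino acid sequences numbered 642 and 406, and 5 were found in both, or 0.779% of the first and 1.23% of the second. The share of sequences found in both mice is not given for other V families, so the shared sequences do not set the family apart.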
